A study of Mus musculus with 24 samples.

Results

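Ku70-/- mouse embryonic fibroblasts exposed to bisphenol A (BPA) alone for 4 hr were compared with untreated cells of the same array set. The comparison holds 6 of the 24 arrays of the study, 3 labelled 150 μM BPA for 4 hr and 3 labelled untreated control, and was chosen by array titles and treatment labels alone. All cells, controls included, were immortalized fibroblasts in which Ku70 (gene Xrcc6) is deleted, so no comparison with Ku70-proficient cells is contained in these values, and a single cell line stands for the genotype. The labels give 4 hr in BPA, whereas the study's methods give 5 hr, timed to coincide with the 4-hr point of cells treated with potassium bromate (KBrO3). BPA was prepared in absolute ethanol, and the controls were labelled untreated, without mention of a solvent or of a collection time. The same set holds 3 arrays of cells in BPA for 24 hr. A second set, with its own 3 untreated controls, holds cells given 20 mM KBrO3 and cells given BPA together with KBrO3. RNA was labelled with Cy3 and hybridised to Agilent whole mouse genome arrays, and each value below is a log2 signal relative to the 75th percentile of its own array, so that 0 is a bright probe and a difference of 1 is a 2-fold change.

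BPA is a monomer of polycarbonate plastics that binds estrogen receptors and at high doses raises reactive oxygen species. Fibroblasts answer many stresses with short-lived programmes. In one, NF-kB dimers are freed from their IkB inhibitors and switch on chemokines, interleukin 6 and adhesion molecules, together with the IkB and A20 proteins that shut the pathway off again. In another, kinases that sense amino acid shortage, misfolded proteins or haem phosphorylate eIF2alpha, and the transcription factor ATF4 then raises amino acid transporters and biosynthetic enzymes.

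After 4 hr of BPA the 3 largest rises were those of Ccl20, Cxcl2 and Il6. Ccl20, a chemokine that attracts dendritic cells and lymphocytes through CCR6, was 62.9-fold higher. Il6, the interleukin that drives acute-phase gene expression, was 50.6-fold higher. Cxcl2, a neutrophil attractant, was at least 42.8-fold higher, a bound because none of the 3 control arrays read its probe well above background. Among the 10 largest falls, the galectin Lgals12 and the desmosomal cadherin Dsc1 dropped below the background limit, and the other 8 had log2 fold changes of -2.31 to -1.95.

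Of the 41174 probes on the array, 31262 were well above background on all 3 arrays of at least one group and were tested, and they represent 15786 protein-coding genes, each through its brightest probe. At an adjusted p below 0.05 (limma, Benjamini-Hochberg) and a fold change above 1.5, 485 genes were higher (3.07% of those tested) and 281 were lower (1.78%), 4.85% in either direction. At the stricter limit of the study's methods, a Bonferroni p below 0.01, 22 genes passed (0.139%), 21 of them higher and 1, Dsc1, lower. Over all genes tested, the 3 BPA arrays lay entirely above the 3 controls in 13.5% and entirely below in 16.3%. They did so in every called gene, which the choice by these same arrays favours. The median log2 fold change was -0.063 over all genes, 1.39 over the higher and -1.12 over the lower.

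**Figure D1:**
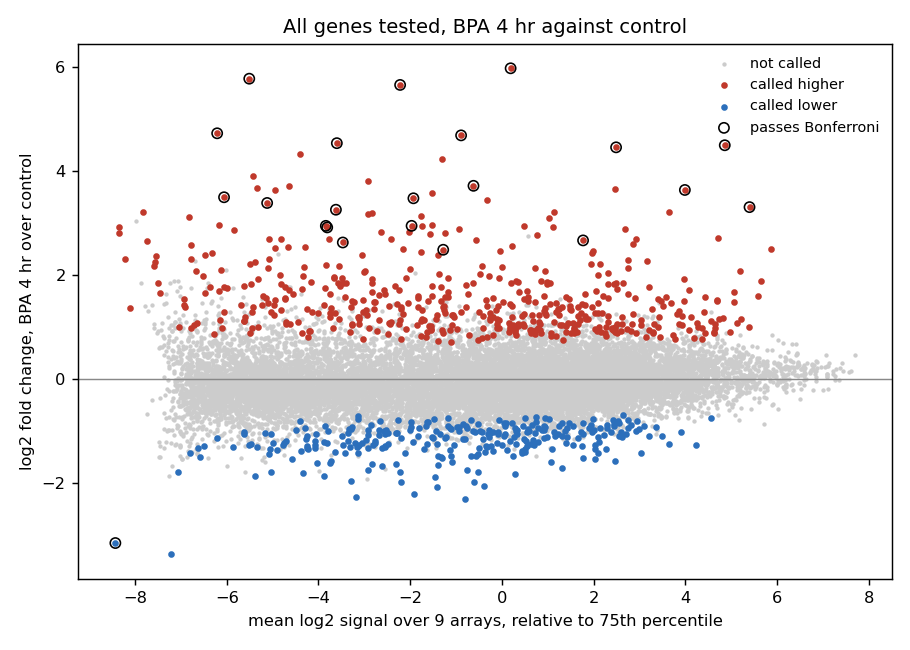
Each point is 1 of the 15786 genes tested. The horizontal axis is the mean log2 signal over the 9 arrays of the set, the vertical axis the log2 fold change of BPA at 4 hr over control, colours mark genes called at adjusted p below 0.05 and 1.5-fold, and circles mark the 22 genes that pass Bonferroni. The highest point is Ccl20 at 5.98, and the lowest points, Lgals12 and Dsc1, were below the background limit after BPA, so that their place on the axis is not a measured fold.

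The median residual standard deviation was 0.337 in this set against 0.105 in the KBrO3 set. Left out one at a time, control replicates 1, 2 and 3 gave 383, 307 and 248 higher genes and BPA replicates 1, 2 and 3 gave 246, 212 and 171. The lower genes fell to 230, 95, 102, 60, 70 and 34 in the same order, and those passing Bonferroni to 10, 11, 7, 8, 4 and 5. Control replicate 1 correlated with the 3 BPA arrays (r = 0.983 to 0.984 across genes, which are not independent) about as closely as with the other controls (0.984 and 0.985), whereas control replicates 2 and 3 correlated with the BPA arrays at 0.968 to 0.98. Its deviations from the group mean correlated with those of BPA replicate 2 (r = 0.35) and of 24-hr replicate 1 (r = 0.5). Without those 3 arrays, called below the 3 arrays that deviated together, 153 genes were higher, 30 were lower and 1 passed Bonferroni. Other arrays shared deviations as well. Those of control replicate 3 correlated with BPA replicate 3 (r = 0.33) and with 24-hr replicate 2 (r = 0.39, same slide), and their joint removal was not tried. Only 1 slide carried both groups, with control replicate 1 and BPA replicates 1 and 3. With slide as a fixed block 0 genes were called at either limit. The log2 difference within that slide was 5.56 for Ccl20, 5.92 for Il6, 4.17 for Cxcl1, -2.17 for Hpgd and -1.39 for Zfp467, values from arrays of the full comparison and so not a separate check of direction.

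Xrcc6 itself read 0.00057, 0.14 and -0.36 in the controls and -0.19, -0.55 and -0.29 after BPA, a log2 difference of -0.27 ± 0.24 (SE, adjusted p = 0.576, limma). Its probe was well above background on all 6 arrays, but where it lies relative to the deleted part of the gene is not given in the sources used here, so it checks nothing about the genotype. The 14 fibroblast markers were well above background on all 6 arrays and 0 of 14 was called, with a summed level of 9.6 to 9.77 in controls and 9.53 to 9.75 after BPA. Of 11 leukocyte markers, Ptprc (CD45), Cd52 and Mrc1 were not well above background on any of the 6 arrays. The summed level of the leukocyte list was -1.61 to -1.07 in controls and -1.42 to -1.23 after BPA. Fcgr1, an Fc receptor of macrophages, was the 1 leukocyte marker called (log2 fold change 1.46 ± 0.25, SE), and that call was lost without control replicate 2 or 3 or BPA replicate 2 or 3. Of muscle markers Tnni2 was called (log2 fold change -1.79) and of adipocyte markers Lgals12 and Plin4 were (Plin4 -0.85, a call lost without any 1 array), while 0 of 6 epithelial and 0 of 5 endothelial markers tested passed. Over all genes 4.85% were called in either direction. The summed epithelial level was 0.29 to 1.24 in controls and 0.2 to 0.28 after BPA, so all BPA arrays lay below all controls. The summed levels of the muscle, adipocyte and endothelial lists overlapped between the groups. In bulk RNA, a change in the number of cells of a type and a change of RNA per cell cannot be told apart.

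Promoter sequence, which the array values did not use, was compared across the called genes. A kappaB site, the decamer recognised by NF-kB, was searched by its common consensus on both strands in the 250 bases before the first listed start of each gene (RefSeq, GRCm38.p6), together with the CArG box of serum response factor, the AP-1 site TGANTCA and the composite C/EBP-ATF element TGATGNAA. Promoters were found for 378 of the 485 higher genes, 220 of the 281 lower genes and 12617 of all genes tested. A kappaB match stood in 43 of 378 (11.4%), 9 of 220 (4.09%) and 551 of 12617 (4.37%), against 3.75% of all 27025 promoters of the table. It stood in 5 of 13 promoters found for the 15 largest rises (38.5%), in 6 of the 8 promoters found for chemokine genes called higher (75%) and in 4 of 8 for NF-kB subunits and inhibitors called higher (50%). It stood in 1 of 10 for acute-phase genes (10%), 1 of 5 for cytokines (20%), 4 of 9 for immediate early genes (44.4%) and 0 of 14 for the ATF4 pathway called higher. AP-1 matches stood in 9.79% of the higher, 3.18% of the lower and 5.02% of all tested genes' promoters. CArG matches stood in 0.794%, 1.36% and 1.27%. The C/EBP-ATF element stood in 3.97%, 1.36% and 2.39%, and in 5 of the 14 promoters found for raised members of the ATF4 pathway (35.7%). These are shares of matching letters, and no binding was measured. For the gene lists, only members called higher were counted. Uncalled members of the same lists were not, so the list shares cannot be tied to the change with BPA.

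These sequences are shown as examples of raised genes that hold a match, not as typical ones, each read 5′ to 3′ toward its gene, in lower case with every match in capitals. They lie at chr1:83116516-83116765 (Ccl20, plus strand), chr5:90903649-90903898 (Cxcl2, plus), chr5:30012864-30013113 (Il6, plus), chr5:90890995-90891244 (Cxcl1, plus), chr6:85513590-85513839 (Egr4, minus) and chr2:119350992-119351241 (Chac1, plus). The capitals mark a kappaB match in Ccl20, 2 overlapping kappaB matches in opposite directions in Cxcl2 and in Cxcl1, an AP-1 match and then a kappaB match in Il6, a kappaB match in Egr4 and the C/EBP-ATF element, read on the opposite strand, in Chac1.
Ccl20: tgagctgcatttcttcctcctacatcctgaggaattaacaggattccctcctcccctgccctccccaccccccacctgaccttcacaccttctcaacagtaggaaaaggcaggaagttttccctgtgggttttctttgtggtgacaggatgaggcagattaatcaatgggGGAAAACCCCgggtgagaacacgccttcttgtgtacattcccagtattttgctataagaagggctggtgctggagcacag
Cxcl2: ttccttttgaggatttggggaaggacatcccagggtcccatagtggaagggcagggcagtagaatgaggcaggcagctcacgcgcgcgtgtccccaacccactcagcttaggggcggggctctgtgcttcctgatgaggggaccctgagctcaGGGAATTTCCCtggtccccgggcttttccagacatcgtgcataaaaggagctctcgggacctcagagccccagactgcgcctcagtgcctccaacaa
Il6: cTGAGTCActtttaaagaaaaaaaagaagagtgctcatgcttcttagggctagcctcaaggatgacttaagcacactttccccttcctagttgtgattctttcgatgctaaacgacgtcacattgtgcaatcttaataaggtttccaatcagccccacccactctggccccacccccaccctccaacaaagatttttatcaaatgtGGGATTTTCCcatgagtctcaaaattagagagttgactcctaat
Cxcl1: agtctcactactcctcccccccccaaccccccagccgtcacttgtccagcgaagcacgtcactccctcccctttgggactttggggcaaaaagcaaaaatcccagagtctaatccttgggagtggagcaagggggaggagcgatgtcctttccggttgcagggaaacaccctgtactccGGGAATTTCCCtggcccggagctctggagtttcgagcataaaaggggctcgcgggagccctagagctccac
Egr4: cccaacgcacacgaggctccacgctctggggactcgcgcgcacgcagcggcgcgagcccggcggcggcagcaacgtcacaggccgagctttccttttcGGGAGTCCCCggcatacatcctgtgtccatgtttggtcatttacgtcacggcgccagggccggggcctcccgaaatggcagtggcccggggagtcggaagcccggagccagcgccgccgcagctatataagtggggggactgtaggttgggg
Chac1: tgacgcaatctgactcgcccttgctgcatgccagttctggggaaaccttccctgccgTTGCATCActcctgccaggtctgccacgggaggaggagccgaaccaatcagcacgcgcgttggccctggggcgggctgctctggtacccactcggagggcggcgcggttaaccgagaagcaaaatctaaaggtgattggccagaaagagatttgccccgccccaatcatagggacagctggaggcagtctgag
The kappaB match began 80 bases before the start in Ccl20, 97 in Cxcl2, 71 in Cxcl1, 44 in Il6 and 152 in Egr4. No CArG match stood in the 250 bases shown for Egr4. The same 250 bases of Saa3, Icam1, Fgg and Trib3, which were also called higher, held none of the 4 motifs.

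Of 32 CXC, CC and CX3C chemokines, 26 were tested, 14 were called higher and 0 lower (53.8% against 3.07% of all genes), and the list's median log2 fold change was 1.51 against -0.063. Ccl20 read -2.16, -2.12 and -3.06 in the controls and 3.31, 3.79 and 3.49 after BPA, a log2 fold change of 5.98 ± 0.39 (SE, adjusted p = 0.000179, limma). Cxcl2 read -7.32, -7.77 and -8 against -2.15, -1.75 and -1.86. Every BPA array exceeded every control for both genes by far more than the spread within a group. Ccl2, the monocyte attractant MCP-1, was already bright at 2.82, 3.03 and 2.4 and read 6.96, 7.39 and 7.39 after BPA, 22.6-fold higher. Cxcl1, the partner of Cxcl2 at the receptor CXCR2, rose 22-fold from 0.69, 0.68 and -0.016 to 4.5, 5.01 and 5.21. Cxcl10, which attracts T cells through CXCR3, rose 12.5-fold. Ccl7, Cxcl5, Ccl11, Cxcl9, Ccl4, Cxcl3, Ccl9, Cx3cl1 and Ccl5 also rose, by 3.66 to 1.3 on the log2 scale. Cxcl12, which fibroblasts secrete to hold cells bearing CXCR4, had a log2 fold change of 0.86 (adjusted p = 0.0742), and Cxcl11, Cxcl13, Ccl3, Ccl12, Ccl22 and Ccl24 were too dim to test. Leaving out single arrays gave 11 to 15 called chemokines, and leaving out the 3 arrays that deviated together gave 11.

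**Figure D2:**
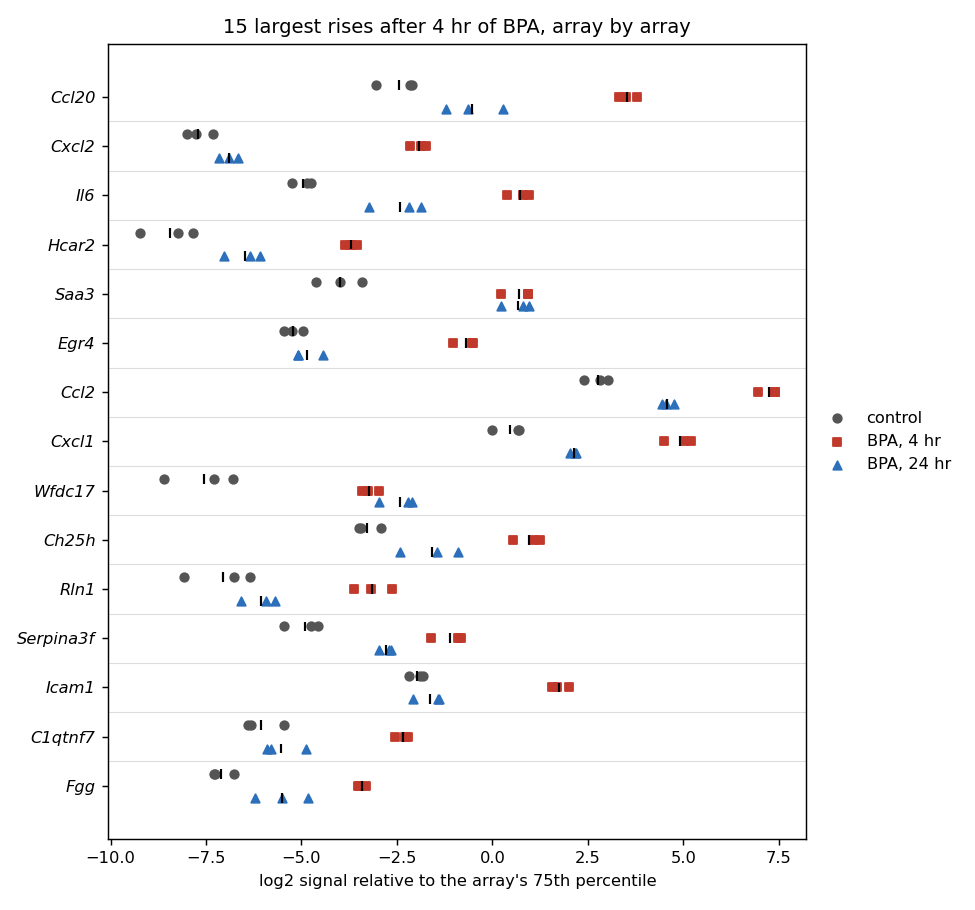
Array-by-array log2 signal, relative to the 75th percentile of the array, of the 15 genes with the largest rises at 4 hr. Circles are the 3 controls, squares the 3 BPA arrays at 4 hr, triangles the 3 BPA arrays at 24 hr, and bars the group means. The squares lie to the right of all circles in every gene, and in Saa3 and Wfdc17 the triangles lie among or beyond the squares.

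Of 22 tested members of the cytokine and colony-stimulating factor list, 6 rose (27.3% against 3.07% of all genes) and 0 fell, and the median was 0.044. Il6 read -5.25, -4.74 and -4.86 in the controls and 0.37, 0.81 and 0.96 after BPA. The tumour necrosis factor family gave 3 of the other rises. Tnfsf10, the death ligand TRAIL, read -4.52, -4.47 and -4.71 against -1.96, -1.96 and -1.9. Tnfsf11, the osteoclast factor RANKL, rose by 2.69 ± 0.41 and Tnf itself by 1.56 on the log2 scale. Tslp and Il33, which alert type 2 immunity, rose by 1.79 and 1.16. Csf1 (0.7), Il11 (0.14), Il7 (-0.051) and Il15 (-0.28) did not pass the test, and Il1a, Il1b, Il23a, Csf2 and Csf3 were too dim to be tested. Without the 3 arrays that deviated together, 2 cytokines were called.

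Of 26 tested subunits, inhibitors and activators of NF-kB, 12 were called higher (46.2% against 3.07% of all genes) and 0 lower, with a median of 1.05. Nfkbiz, an atypical IkB that acts in the nucleus, read -0.89, 0.13 and -0.3 against 2.85, 2.65 and 2.77, and was 8.63-fold higher. Tnfaip3, which encodes the ubiquitin-editing enzyme A20, was 7.73-fold higher, Zc3h12a, the RNase that degrades Il6 mRNA, 7.13-fold, and Bcl3 6.36-fold. Nfkbie and Nfkbia, encoding IkBepsilon and IkBalpha, rose by 2.08 and 1.93 on the log2 scale. Birc3, Map3k8 and Traf1 rose by 1.7 to 1.6. Of the subunits, Relb rose by 1.84, Nfkb1 by 1.54 and Nfkb2 by 1.28, whereas Rela had a log2 fold change of 0.29 (adjusted p = 0.513) and Rel, at 1.85, missed the threshold (adjusted p = 0.0507). Ikbkb and Chuk, the kinases of the IkB kinase complex, and Ikbkg, its regulatory subunit, lay between -0.25 and -0.0046 and were not called. With single arrays left out, 11 or 12 members were called, and without the 3 arrays 8.

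Of 20 adhesion molecules and innate sensors tested, 8 rose (40% against 3.07% of all genes) and 1 fell (1.78% of all genes did), with a median of 0.73. Icam1, the endothelial and stromal ligand of leukocyte integrins, read -2.19, -1.81 and -1.9 in controls and 1.69, 1.57 and 2 after BPA, 13.2-fold higher, and a second probe gave a log2 fold change of 3.47. Ripk2, the kinase below the NOD receptors, was 7.09-fold higher and Tlr2, the receptor for bacterial lipoproteins, 6.07-fold. Icosl, a T-cell co-stimulator, was 5.62-fold higher. Vcam1, Nod2, Irf1 and the mitochondrial superoxide dismutase Sod2 rose by 1.51 to 1.61 on the log2 scale, and Tlr1 fell by 1.33. The number of the list called lower was 0 or 1 with single arrays left out. It was 0 without the 3 arrays that deviated together and with the replicate number as a block. Myd88 and Cd14 had log2 fold changes of 0.87 and 0.39 and were not called.

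Acute-phase proteins and their C/EBP regulators gave 12 rises (52.2% against 3.07% of all genes) and 0 falls among 23 tested (median 1.08). Saa3, a serum amyloid A made outside the liver, read -3.98, -3.41 and -4.62 against 0.22, 0.92 and 0.92 and was 25.8-fold higher. Lcn2, which binds bacterial siderophores, read -4.76, -3.03 and -4.57 against -0.54, -0.73 and -0.36 and was 12-fold higher. Cebpd, the transcription factor that sustains such genes, was bright in controls at 3.44, 3.85 and 3.48 and reached 6.63, 6.92 and 7.15, 9.91-fold higher, and Cebpb was 3.18-fold higher. Serpina3g was 7.57-fold higher, and Mt2, Saa2, Saa1, Ptx3, Hp, Saa4 and Socs3 rose by 2.5 to 0.95 on the log2 scale. Outside the list, Fgg, the gamma chain of fibrinogen, read -6.76, -7.27 and -7.28 against -3.51, -3.31 and -3.46, with 2 of its 3 control arrays well above background. C3, C4b and Serpina3n had log2 fold changes of 0.35, 0.018 and 0.2 and were not called. The number called fell to between 6 and 8 when single arrays were left out.

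Of 33 interferon-response genes tested, 12 were called higher (36.4% against 3.07% of all genes) and 0 lower, with a median of 0.55. The guanylate-binding protein Gbp5 was 7.35-fold and Gbp2 3.56-fold higher. Rsad2 (viperin) and Ifi47 rose by 1.69 and 1.61. Isg15 (0.61) and Irf7 (0.09) did not pass the test, and Mx1 and Mx2 were too dim to test. Only 3 to 8 members were called when single arrays were left out, and 2 without the 3 arrays. Rsad2 and Ifi47 lost the call without control replicate 3 or any 1 BPA array, with adjusted p up to 0.0812 and 0.0992.

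Immediate early genes, mostly of transcription factors, are switched on without new protein synthesis. They gave 14 rises and 0 falls among 24 tested (58.3% higher against 3.07% of all genes, median 1.05). Egr4 led, at -4.97, -5.25 and -5.47 in the controls and -1.03, -0.53 and -0.52 after BPA, 23.3-fold higher. Atf3, shared by inflammatory and stress programmes, was 5.89-fold higher, Ier3 5.48-fold and Junb 3.69-fold. Egr2, Fosl1, Jun, Myc, Maff, Fos, Egr1, Egr3, Fosl2 and Ier2 rose by 1.67 to 0.89 on the log2 scale. Srf and Jund had log2 fold changes of -0.31 and -0.22 and were not called. Between 4 and 8 members were called when single arrays were left out and 3 without the 3 arrays, while the median stayed between 0.96 and 1.18. With the replicate number as a block, 7 were called.

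Feedback inhibitors of MAP kinases included 3 rises of 17 tested (17.6% against 3.07% of all genes). Errfi1, an inhibitor of EGF receptors, was 4.93-fold higher and Dusp6, the phosphatase of ERK, 3.64-fold, a call lost without BPA replicate 3 (adjusted p = 0.0505). Dusp10 was 1.96-fold higher, a call lost without any 1 array, and Dusp1 (0.28) and Spry4 (0.51) did not pass the test. Among 11 EGF-family ligands and receptors, the growth factor Hbegf rose 3.01-fold and the receptor Erbb3 fell by 1.41 on the log2 scale, with -0.57 and -0.54 at its 2 other probes. Over all genes 4.85% were called in either direction. The call of Hbegf was lost without control replicate 3 or BPA replicate 2 or 3, and that of Erbb3 without BPA replicate 1 or 3 (adjusted p up to 0.0713 and 0.0622). Areg, at 2.4, was not called (adjusted p = 0.0734).

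Prostaglandin genes gave 4 rises (28.6% against 3.07% of all genes) and 1 fall among 14 tested, where 1.78% of all genes fell. Ptgs2, the inducible cyclooxygenase COX-2, read -2.69, -2.76 and -3.12 in controls and -0.0089, 0.26 and -0.0031 after BPA, 7.66-fold higher. Hpgd, the dehydrogenase that inactivates prostaglandin E2, read 0.52, 0.93 and 1.22 against -2.16, -0.96 and -1.14 and had a log2 fold change of -2.31 with an SE of 0.32 (limma, adjusted p = 0.00577), with -1.82 at a second probe. The receptors Ptgir and Ptgfr rose by 1.94 and 1.41. Ptger2 was at least 1.25-fold higher, its control arrays all being below the background limit. The constitutive Ptgs1 had a log2 fold change of -0.59 (adjusted p = 0.4). A second probe of Ptgir gave -0.46, so its probes disagree.

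All 33 tested members of the ATF4 pathway had a positive log2 fold change (44.6% of all genes did). Of these, 15 were called higher (45.5% against 3.07% of all genes) and 0 lower, and the median was 1. Chac1, which degrades glutathione, read 1.72, 1.79 and 1.52 against 3.85, 4.05 and 3.96, 4.84-fold higher. Slc7a11, the cystine transporter, was 4.09-fold higher, and its 3 other probes gave log2 fold changes of 2.14 to 3.1. Ddit3 (CHOP) rose by 1.56, the asparagine synthetase Asns by 1.49, the mitochondrial folate enzyme Mthfd2 by 1.41, the pseudokinase Trib3 by 1.32 and Atf4 by 1.07. Vldlr, Nupr1, Slc7a5, Sesn2, Slc3a2, Slc7a1, Cebpb and the hormone Fgf21 were called as well. The call of Fgf21 was kept only without control replicate 1, and that of Sesn2 was lost without any 1 array. The aminoacyl-tRNA synthetases Aars, Gars, Nars, Sars and Wars lay between 0.4 and 0.62, and none was called, although 2 further probes of Aars gave 1.49 and 2.53. The number called was 6 to 11 when single arrays were left out and 2 without the 3 arrays, with a median of 0.95 to 1.04 and of 1.02. ER chaperones and the unfolded protein response, the programmes next to it, had 0 of 23 called and a median of 0.1, and cytosolic heat shock proteins 0 of 19 and -0.097. At the 4.85% of all genes called in either direction, few calls would be expected in lists of that size.

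**Figure D3:**
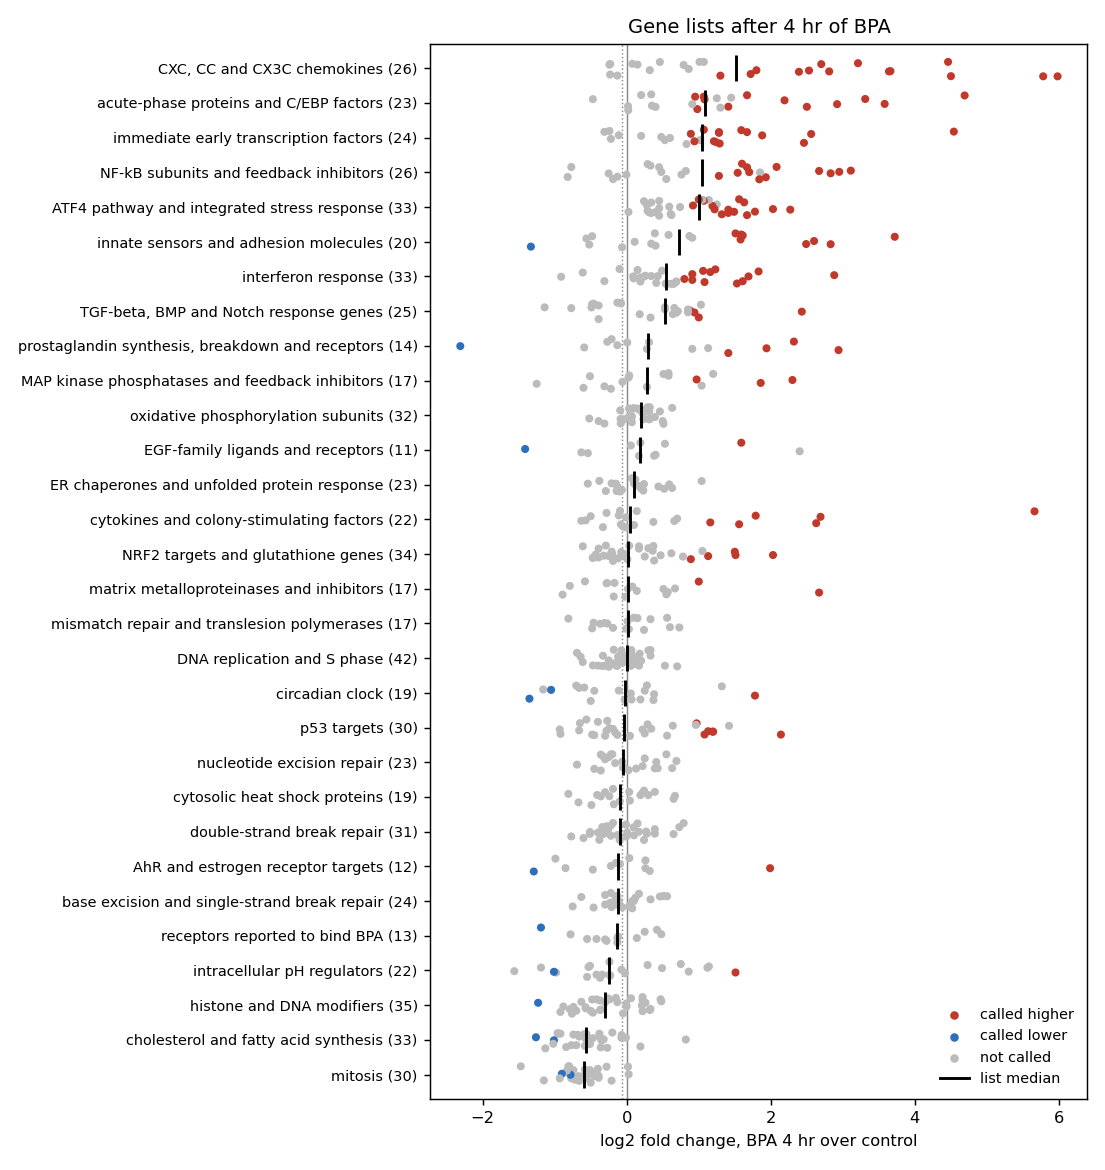
Each point is the log2 fold change of 1 gene after 4 hr of BPA, in rows by gene list with the number of genes tested in brackets. Red and blue points were called higher and lower, grey points were not called, black bars are the list medians and the dotted line is the median of all genes, -0.063. The ATF4 row lies wholly to the right of 0, and 28 of the 30 points of the mitosis row lie to the left.

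Oxidative stress genes changed in part. Of 34 NRF2 targets and glutathione genes, 5 rose (14.7% against 3.07% of all genes) and 0 fell, and the median was 0.022. Without single arrays 2 to 4 were called, and without the 3 arrays that deviated together 1. Hmox1, haem oxygenase 1, read 2.5, 2.46 and 2.24 against 3.96, 3.77 and 3.97, 2.83-fold higher, and Srxn1, sulfiredoxin, was 2.19-fold higher. Txnrd1, Slc7a11 and Sod2 were the other 3. Nqo1 (-0.47), Gclm (-0.014) and Gstm1 (-0.19) were not called, and Gclc, at 1.05, missed the threshold (adjusted p = 0.0772). The calls of Hmox1 and Srxn1 were lost without BPA replicate 3, at adjusted p up to 0.0543 and 0.072, and that of Srxn1 also without BPA replicate 2.

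DNA repair and replication genes did not pass the test in either direction. The counts were 0 of 24 for base excision and single-strand break repair, 0 of 23 for nucleotide excision repair, 0 of 31 for double-strand break repair, 0 of 17 for mismatch repair and translesion polymerases, and 0 of 42 for replication. Over all genes 4.85% were called in either direction, a share at which lists of this size would hold few calls. The medians of these repair and replication lists lay between -0.12 and 0.011. Ogg1, the glycosylase of 8-oxoguanine, had a log2 fold change of 0.51 (adjusted p = 0.297), Ung 0.56 (0.178), Polb 0.1 (0.797), Xrcc1 -0.46 (0.34) and Parp1 -0.75 (0.292). A p that misses the threshold does not show that they were unchanged. Of 30 p53 targets 6 rose (20% against 3.07% of all genes). Gadd45a led, at 1.7, 1.2 and 0.88 against 3.26, 3.48 and 3.45, 4.4-fold higher. Cdkn1a (0.64), Mdm2 (-0.13) and Bax (0.29) were not called, and the list's median was -0.044. Eda2r, Sesn2, Fas, Btg2 and Aen rose by 1.2 to 0.97. Between 1 and 3 of these targets were called when single arrays were left out.

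Mitotic genes and sterol genes leaned the other way, mostly without passing the test. Of 30 mitosis genes, 2 had a positive log2 fold change (44.6% of all genes did), the median was -0.59, and 21 had all BPA arrays below all controls (16.3% of all genes). Called lower were 2, Kif23 at -0.9 and Cenpf at -0.78, where 1.78% of all genes were. The call of Cenpf was lost without any 1 array and that of Kif23 without any but control replicate 1. Plk1 had a log2 fold change of -0.83 (adjusted p = 0.0874) and Ccnb1 of -0.74 (0.0822). Of 33 cholesterol and fatty acid synthesis genes, 2 had a positive log2 fold change and the median was -0.56. Scd2, a stearoyl-CoA desaturase, fell by 1.26 and Hmgcs1, an early enzyme of the mevalonate route, by 1.01, calls lost without control replicate 2 or any 1 BPA array, and that of Hmgcs1 also without control replicate 3. Under median scaling 0 mitosis genes were called and under quantile normalization 5, with medians of -0.59 and -0.73.

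Of 13 tested receptors reported to bind BPA, Gper1, the membrane estrogen receptor, was the only one called, where 4.85% of all genes were called in either direction. It read -1.77, -2.06 and -1.96 in controls and -3.13, -3.15 and -3.09 after BPA. Esr1, Esr2, Esrrg and Ahr had log2 fold changes of 0.42, -0.28, 0.48 and 0.14. Among targets of estrogen and aryl hydrocarbon receptors, Igf1 rose by 1.99 and Ahrr fell by 1.29, while Cyp1a1 (0.036) and Cyp1b1 (0.32) were not called. The calls of Gper1 and Igf1 were each lost without 5 of the 6 arrays in turn, and that of Ahrr without BPA replicate 3.

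The called members of the remaining lists stand beside 4.85% of all genes called in either direction. Of 35 histone and DNA modifiers, Hdac11 fell by 1.23, a call lost without any 1 array. Of 22 pH regulators, the monocarboxylate transporter Slc16a1 read 3.06, 3.04 and 2.98 against 4.53, 4.7 and 4.38, 2.85-fold higher, and the carbonic anhydrase Car5b fell by 1.01, a call lost without any 1 array. Of 17 matrix metalloproteinases and inhibitors, the collagenase Mmp13 read -2.4, -2.25 and -2.23 against 0.49, 0.11 and 0.52, 6.35-fold higher, and Mmp3 rose 2-fold, a call kept only without control replicate 2. Among 25 TGF-beta, BMP and Notch response genes, those called included Smad7, Id3 and Skil, which rose by 1 to 0.88 on the log2 scale with calls that did not hold without single arrays. Of 19 clock genes, Nfil3 rose by 1.78 and its antagonists Dbp and Tef fell by 1.35 and 1.05. The calls of Dbp and Tef were kept without 1 and 2 of the 6 arrays in turn. Oxidative phosphorylation subunits had 0 of 32 called and a median of 0.2.

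Several of the largest changes fell outside these lists. Hcar2, the receptor for niacin and ketone bodies, was at least 12.4-fold higher, its controls being below the background limit. Ch25h, which makes 25-hydroxycholesterol, read -3.43, -2.91 and -3.5 against 0.55, 1.25 and 1.07, 18.8-fold higher. The serpin Serpina3f was 14-fold higher, with 4.16 on the log2 scale at a second probe against 3.81. Wfdc17 and the relaxin gene Rln1 rose by 4.34 and 3.91, with 2 of 3 control arrays well above background for each. C1qtnf7, a secreted C1q-like protein, was 13.1-fold higher. Prg4 (lubricin), Rxfp3, Neurl3, Grhl1, Ccrl2 and Calhm6 passed Bonferroni at 11.1-, 10.5-, 9.56-, 7.74-, 7.71- and 7.59-fold. Oog1, known from oocytes, was at least 7.29-fold higher. All 15 largest rises kept their call without any 1 array, without the 3 arrays together and with the replicate block.

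Among the 10 largest falls, Lgals12 was at least 4.54-fold and Dsc1 at least 2.06-fold lower, because neither was well above background on any BPA array. The 10 were ranked by measured values, and the bound of Dsc1 alone does not establish its rank. Lgals12 read -5.26, -5.28 and -4.93 against -9.3, -7.85 and -8.43, and Dsc1 -6.14, -6 and -6.76 against -9.64, -9.24 and -9.46. Fry, a microtubule-associated protein, read -2.43, -1.98 and -2 against -4.52, -4.35 and -4.31, but its 2 other probes gave -2.46 and -0.093, so one of them disagrees. Tppp, which promotes tubulin polymerization, read -0.72, -0.27 and -0.098 against -2.41, -2.31 and -2.57. Lmcd1 and the zinc finger gene Zfp467 fell by 1.97 and 1.95. The organic anion transporter Slco2b1 fell by 2.21, the growth factor Fgf18 by 2.06 and the glycosidase-like Myorg by 1.98. The call of Slco2b1 was lost without BPA replicate 1 or 3, that of Fgf18 without any 1 array, and that of Myorg without control replicate 2 or 3 or BPA replicate 2 or 3 (adjusted p up to 0.0597, 0.169 and 0.0713).

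**Figure D4:**
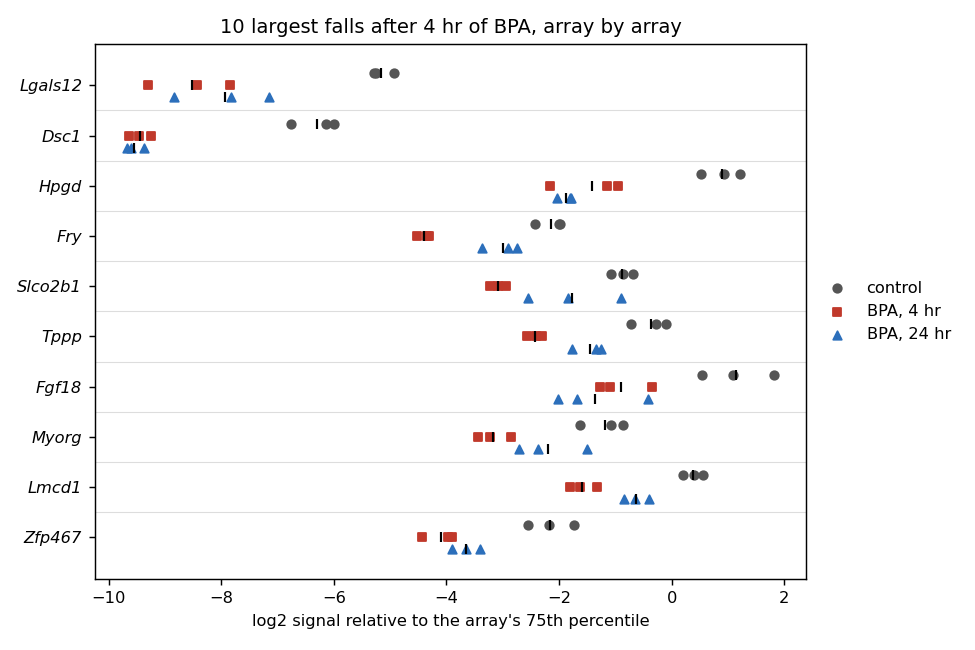
Array-by-array log2 signal, relative to the 75th percentile of the array, of the 10 genes with the largest falls at 4 hr. Circles are the 3 controls, squares the 3 BPA arrays at 4 hr, triangles the 3 BPA arrays at 24 hr, and bars the group means. The squares lie to the left of all circles in every gene, and in Dsc1, near the lower end of the scale, squares and triangles overlap.

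Cells in BPA for 24 hr were measured on further arrays of the set. The set has a single control group without a stated collection time, so time in BPA and time in culture cannot be told apart. The comparison of 24 hr with 4 hr uses the same 4-hr arrays, so genes picked for their 4-hr change are given with each comparison's own values and no count of shared calls. Across all genes tested, 498 were lower (3.15%) and 191 higher (1.21%) at 24 hr than at 4 hr. The total of 689 fell to 323, 220 and 209 without BPA 4-hr replicates 1, 2 and 3 in turn, and to 167 without the 3 arrays that deviated together. Cxcl2 stood at -6.66, -7.15 and -6.9, a difference from 4 hr of -4.99 ± 0.24 (SE, adjusted p = 0.000118, limma). No fold over control is given for Cxcl2 at 24 hr, because its control arrays were below the background limit. Egr4 stood at -5.09, -4.43 and -5.08, 4.18 below its 4-hr level, and Icam1 at -2.07, -1.42 and -1.41, 3.39 below. Neither was called against control at 24 hr (adjusted p = 0.507 and 0.514). Ccl20 and Il6 had fallen by 4.05 and 3.14 but remained above control by 1.93 and 2.52 (adjusted p = 0.0323 and 0.00721), and Ccl2 and Cxcl1 stood 1.83 and 1.68 above control.

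Saa3, Wfdc17 and Lcn2 were not called lower at 24 hr than at 4 hr. Saa3 read 0.96, 0.23 and 0.81 at 24 hr, a difference from 4 hr of -0.022 (adjusted p = 0.978), and Wfdc17 and Lcn2 differed by 0.79 (0.344) and 0.66 (0.428). Chac1 differed by -0.091, Slc7a11 by -0.34, Cebpb by 0.025, Gadd45a by 0.22, Hmox1 by 0.19 and Mmp13 by -0.14, none of them called. Of the 10 falls, Fry and Lmcd1 rose again by 1.39 and 0.95 (adjusted p = 0.0114 and 0.0395), while Hpgd (-0.45), Fgf18 (-0.46) and Zfp467 (0.45) were not called. Dsc1 was below the background limit at both times, so its times cannot be compared.

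The effect of BPA given alone was then set beside its effect when added to KBrO3, an oxidant that damages DNA bases. The latter is the difference between cells given both agents and cells given KBrO3 alone, measured in the other array set. That set was scanned on its own and has its own controls, so the presence of KBrO3 and the array set cannot be told apart in this comparison. The cells given both agents received BPA before, during and after KBrO3. Fitted over all 24 arrays with a weight for each set, the signed log2 fold change of BPA alone lay above that of BPA added to KBrO3 in 873 genes (5.53%) and below it in 607 (3.85%), where a lower value can be a stronger fall. The genes below were picked for their change with BPA alone, which is itself 1 arm of the difference. For Il6, BPA alone gave 5.66, BPA added to KBrO3 gave -0.041 (adjusted p = 0.563), and the difference was 5.7 ± 0.28 (SE, adjusted p = 1.17e-09, limma). Cxcl1 gave 4.46 and -0.58, Egr4 4.54 and 0.18, and Saa3 4.69 and 0.37. Ccl20 was raised in both, by 5.98 and 1.57, and so was Serpina3f, by 3.81 and 1.21.

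For Chac1 and Gadd45a the difference between the settings was not called. Chac1 gave 2.27 with BPA alone and 2.34 when added to KBrO3 (difference -0.071 ± 0.23, adjusted p = 0.889), and Gadd45a gave 2.14 and 1.56 (0.58 ± 0.25, adjusted p = 0.158). Tnni2, Kif23 and Plin4 gave -1.79, -0.9 and -0.85 with BPA alone and -1.69, -0.86 and -0.95 when BPA was added. These genes were picked out after their values were seen, and a p above the threshold does not show equal effects.

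The untreated cells of the other set started from other levels. Il6 read 0.4, 0.45 and 0.33 in its 3 untreated controls, beside -5.25, -4.74 and -4.86 in the controls here and 0.37, 0.81 and 0.96 after BPA. Saa3 read 4.56, 4.48 and 4.51 there, above both groups here. Ccl2 read 7.83, 7.84 and 7.81 and Cxcl1 4.32, 4.27 and 4.11, above all BPA arrays for Ccl2 and below them for Cxcl1. Egr4 read -5.98, -5.05 and -5.7, with 1 of these 3 arrays well above background. The effect of added BPA, however, is measured from cells given KBrO3 alone. There Egr4 read 0.43, 0.42 and 0.35, Il6 2.29, 2.31 and 2.29, and Cxcl1 6.49, 6.46 and 6.46. Saa3 read 4.19, 4.2 and 4.21 and Ccl2 8.67, 8.6 and 8.7. Each of these genes thus lay above its 3 arrays of BPA alone at 4 hr. The 2 sets were scaled separately, so these levels are given side by side without a test.

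KBrO3 alone was measured against its own controls on separate arrays. Of the 449 higher genes with a value in that set, 234 (52.1%) were also higher after 4 hr of KBrO3 and 77 (17.1%) were lower, against 20.8% and 23.3% of the 14151 genes tested there. The 234 made up 7.96% of the 2939 genes higher after KBrO3. Of the 264 lower genes, 200 (75.8%) were also lower and 9 (3.41%) higher. BPA added to KBrO3 raised 149 of the 449 (33.2% against 10.8% of all) and lowered 103 of the 264 (39% against 8.9%). KBrO3 gave log2 fold changes above those of BPA alone, a difference not tested, for Ptgs2 (6.08), Atf3 (5.89), Hmox1 (6.22), Hbegf (5.37), Srxn1 (5.06) and Slc7a11 (5.04). It gave -0.89 for Icam1, -0.86 for Cebpd, -1.96 for Bcl3, -2.38 for Tnfsf10 and -1.92 for Gbp5, which rose with BPA alone. Tnfsf10 was well above background on 2 of the 3 KBrO3 arrays. Of the falls, KBrO3 gave -2.58 for Tppp, whereas Fry and Zfp467 were well above background on 0 and Hpgd on 1 of the 3 KBrO3 arrays, so no fold is given for them.

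**Figure D5:**
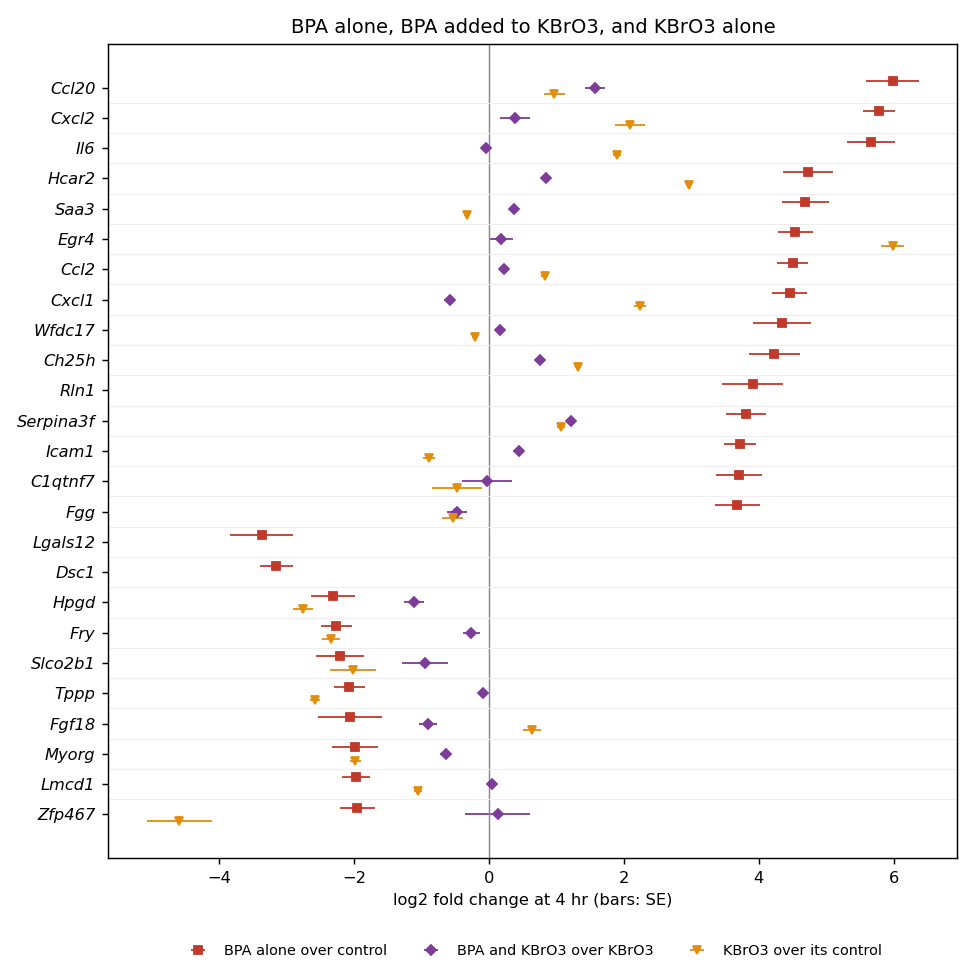
Log2 fold changes at 4 hr, with SE bars, of the 15 largest rises and 10 largest falls. Squares are BPA alone over control, diamonds BPA with KBrO3 over KBrO3, and triangles KBrO3 over its own control, these last from the other array set, as are the diamonds. Il6 stands at 5.66 for BPA alone and -0.041 for BPA added, and Rln1, Lgals12 and Dsc1 have only the square because their probes were too dim in the other set. The diamonds and triangles of Fry, Zfp467 and Hpgd are not measured folds, since those probes were well above background on at most 1 of 3 arrays with KBrO3, alone or with BPA.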

How the data were processed

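The authors deposited Agilent Feature Extraction output, with intensity values per spot for each array (version 12.0.0.7 for this set and 9.5.3.1 for the KBrO3 set, per the file headers). The deposited gProcessedSignal intensity, background-subtracted by that software, equalled the deposited series table at all 1080432 values. Here it was log2 transformed and scaled to the 75th percentile over non-control spots, outlier spots were left out and spots of a probe averaged. Probes were named through RefSeq accessions, then symbols. limma (version 3.58.1) was fitted to the 9 arrays of the set, with empirical Bayes moderation over all 31262 probes, and p-values were adjusted over those probes. The fit was tested on simulated data with independent noise, without shared deviations or slide differences between arrays, so that test does not cover these. The study used an error-weighted analysis of variance. Error weights and an analysis of variance without moderation were each tried here as separate alternatives, not together. Gene lists and comparisons were chosen with earlier results of these data known. The genes named are the 15 largest rises and 10 largest falls called, those passing Bonferroni, Xrcc6, and up to 4 called members of each list. Ranks used measured values, also where a group was below the background limit. Others named from the lists were chosen after their values were seen. A bound on a fold change compares the brighter group's mean with the lowest signal well above background. The methods describe 3 biological replicates per condition. Precision is limited by the number of arrays. Files of this set lack a mean signal, so background correction by normexp used the median signal. The deviations of same-numbered arrays correlated at r = -0.28, -0.019 and 0.33. Not every pair was above 0.1, so numbers were not taken as pairs. Some genes of the lists are not reported here.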

Additional observations from a re-analysis of the deposited data

Results flagged for a closer look

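The genes below were chosen for their change at 4 hr, and both differences given use the same 4-hr arrays, so that how many of them passed is not read as a result. Over all genes tested, 3.15% were lower and 1.21% higher at 24 hr than at 4 hr (limma). The 24-hr value was lower by 4.05 for Ccl20, 4.99 for Cxcl2, 3.14 for Il6, 2.78 for Hcar2, 4.18 for Egr4, 2.67 for Ccl2 and 2.78 for Cxcl1 on the log2 scale (differences of -4.05, -4.99, -3.14, -2.78, -4.18, -2.67 and -2.78). It also differed by -2.54 for Ch25h, -2.92 for Rln1, -1.68 for Serpina3f, -3.39 for Icam1, -3.18 for C1qtnf7 and -2.09 for Fgg. It was higher at 24 hr for Lmcd1 by 0.95 and for Fry by 1.39.

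Over all genes tested, the signed log2 fold change of BPA alone lay above that of BPA added to KBrO3 in 5.53% and below it in 3.85%, by a limma interaction test. The log2 difference, BPA alone minus BPA added, was 4.4 for Ccl20, 5.39 for Cxcl2, 5.7 for Il6, 3.89 for Hcar2, 4.32 for Saa3, 4.36 for Egr4, 4.27 for Ccl2, 5.04 for Cxcl1, 4.18 for Wfdc17 and 3.49 for Ch25h. It was 2.31 for Rln1, 2.6 for Serpina3f, 3.28 for Icam1, 3.73 for C1qtnf7 and 4.15 for Fgg. It was -2.02 for Lmcd1, -1.34 for Myorg, -1.98 for Tppp, -2 for Fry and -3.2 for Lgals12. The values of Cxcl2, Hcar2 and Lgals12 rest on a group below the background limit in the BPA set. Fry was well above background on 0 of 3 arrays with KBrO3 and on 0 of 3 with both agents, so that its difference is not a measured one. Rln1 and Lgals12 were not well above background on all arrays of any 4-hr group of the KBrO3 set. KBrO3 and the array set cannot be told apart in these differences.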

How the results depend on the processing

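The higher genes numbered 485, the lower 281, those passing Bonferroni 22, those differing between 24 hr and 4 hr 689 and those differing between BPA alone and BPA added to KBrO3 1480. With each of the 6 arrays of the comparison left out in turn, these ranged over 171 to 383, 34 to 230, 4 to 11, 209 to 681 and 687 to 1982. No 24-hr array and no array of the KBrO3 set was left out singly. Without control replicate 1, BPA 4-hr replicate 2 and 24-hr replicate 1 together the counts were 153, 30, 1, 167 and 1620. With the replicate number as a block the first 4 were 284, 104, 5 and 445. With slide as a fixed block the first 3 were 0, 0 and 0. Background correction by normexp gave 15, 0, 1, 0 and 108, its background mean being far below zero on control replicate 1 and BPA replicate 3, where 6 and 8 spots had a local background over 50 units above the signal. Fitted without such spots, a choice made after seeing the data, as was the joint removal of 3 arrays and a filter over both sets, it gave 36 passing Bonferroni. The 6 arrays alone gave 7 passing Bonferroni and 173 lower. All 24 arrays in 1 fit gave 438 passing Bonferroni, 1265 higher, 1283 lower and 2526 differing between times. The analysis of variance without moderation gave 3 passing Bonferroni. Median scaling gave 132 lower and no filter gave 171. Equal weights for both sets gave 2628 for the last comparison. The cause of these changes was not tested. All other alternatives stayed within 1.5 times of these counts. Of the 95 genes named by rule, 63 kept their side of the threshold without each array in turn, and 76 did with the replicate block. The 3 arrays per group limit precision, and probes below background give bounds only.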
